A study of Mus musculus with 46 samples.

Results

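The nuclear-encoded subunits of the mitochondrial respiratory chain and of the ATP synthase were followed in 46 RNA-seq libraries of mouse microglia, macrophages that reside in the brain, isolated by cell sorting. Members were chosen by symbol alone: the Ndufa, Ndufb, Ndufc, Ndufs and Ndufv genes of complex I, Sdha to Sdhd of complex II, the Uqcr genes and Cyc1 of complex III, the Cox4 to Cox8 genes of complex IV and the Atp5 genes of complex V, with pseudogene symbols left out. The rule gave 93 genes present in all 4 deposited tables, out of 24421 genes shared by the total brain, hippocampus and development tables. Of these, 84 encode subunits, namely 38 of complex I, 4 of complex II, 9 of complex III, 18 of complex IV and 15 of complex V. The other 9 are assembly or accessory proteins that the symbols carry along, namely 7 Ndufaf assembly factors of complex I, the ATP synthase coupling factor Atp5s and Atp5sl, which despite its name is an assembly protein of complex I. Ndufa4 was counted under complex I by its symbol, although the protein is now assigned to complex IV.

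Complexes I to IV pass electrons from NADH and succinate to oxygen and complexes I, III and IV pump protons across the inner mitochondrial membrane while doing so. Complex V, the ATP synthase, uses the returning protons to make ATP. Most subunits are encoded in the nucleus, made in the cytosol and imported, and are assembled with a few subunits encoded by the mitochondrial genome. In macrophages, the bacterial cell wall component lipopolysaccharide (LPS) is known for shifting energy metabolism towards glycolysis, so the genes of the chain are read here beside those of glycolysis and the tricarboxylic acid (TCA) cycle.

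The series compared microglia with and without Dicer, the nuclease that matures microRNAs, at steady state, after LPS and across development. In the adult, total brain and hippocampus tables the controls were labelled Cx3cr1CreER:Dicer+/- and the Dicer-deficient mice Cx3cr1CreER:Dicerfl/-, all 10 to 12 weeks old. Both groups thus carried the Cre driven from Cx3cr1, a gene of microglia and other mononuclear phagocytes, and 1 Dicer allele marked as lost (-). The series text gives the string Dicer+/- for both genotypes, so the groups rest on the sample labels, and the drug that switches CreER on is not given in the sources used here. The adult table holds 4 control and 3 Dicer-deficient libraries. The total brain table holds 3 control and 3 Dicer-deficient libraries at steady state, which the labels also mark PBS without giving an injection, and 4 and 4 taken 6 h after 1 mg per kg of LPS injected into the peritoneum. The series text counts 3 rather than 4 Dicer-deficient LPS libraries there, and all 4 were used. The hippocampus table holds 2 control and 3 Dicer-deficient libraries at steady state and 2 and 2 after LPS. In the development table the controls were Dicerfl/fl without Cre: 4 libraries from embryonic day 14 (E14), 5 from newborns (P0) and 5 from adults of 6 to 8 weeks, beside 2 newborn libraries of Cx3cr1Cre:Dicerfl/fl. Cells were sorted by surface markers, and the E14 gate (CD45+ and F4/80 high) differed from that of the other stages (CD45 intermediate and F4/80+), so that embryonic stage and gate cannot be told apart. No label ties a library to an animal, so p-values measure the spread between libraries, which may be partly technical.

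Values are reads per gene multiplied by 1 scaling factor per library, referred to below as levels. Levels of different tables were scaled separately and are not compared. Libraries held 898451 to 4573063 reads, the adult table between 898451 and 1991621. Dicer1 did not pass the test in any comparison of genotypes; it stood at 97.6 to 153.4 in the 4 controls of the adult table and at 116.6 to 150.6 in the 3 Dicer-deficient libraries, and reads outside the deleted part of the gene check nothing about the deletion. The microglial genes P2ry12 and Tmem119 were present in every library. In the development table the microglial receptor gene Cx3cr1 stood between 490.4 and 1188 in adult libraries 2, 4 and 5 but at 7454 and 8687 in libraries 1 and 3. A second split set adult libraries 1 and 2 apart from 3 to 5: chi-square per degree of freedom between their read counts was 9.25 to 16.6 across the split and 2.92 to 6.98 within it. The counts of called members in the adult comparisons are therefore also given for libraries 1 and 3, 1 and 2, and 3 to 5 alone, while all other adult values rest on the 5 libraries together. In the hippocampus table Cx3cr1 stood at 687.6 in steady-state control 1 and at 7138.7 in steady-state control 2.

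Most members were detected. The testis isoforms Cox7b2 and Cox8c were listed at 0 in every library. In the adult table, 12 members were at 0 in all 7 libraries, and 7 of them (Atp5k, Atp5o, Ndufa13, Ndufa5, Ndufb4, Ndufb7 and Ndufs7) had a median above 10 in each of the other tables. The 84 subunits took 0.2777% to 0.3528% of reads in the adult table and 0.6813% or more in every other library. How reads matching several places in the genome were counted is not given in the sources used here, and its part in this gap was not tested. No member level is therefore compared between the adult table and the others.

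Among the comparisons made here, the members differed in the greatest number between stages. In the development controls the 84 subunits took 2.098% ± 0.167 of reads at E14 (SD, n = 4), 1.54% ± 0.084 at P0 (n = 5) and 0.827% ± 0.073 in adults (n = 5). The lowest E14 library stood at 1.923%, the P0 libraries spanned 1.426% to 1.659% and the adult libraries 0.748% to 0.92%, so that the 3 stages did not overlap. The mean share at E14 was 2.537 times that in adults, and every complex contributed: the ratio was 2.232 for complex I, 2.03 for complex II, 2.355 for complex III, 2.836 for complex IV and 2.994 for complex V. Fewer cells expressing a gene and less of its RNA per cell cannot be told apart in bulk libraries.

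**Figure D1:**
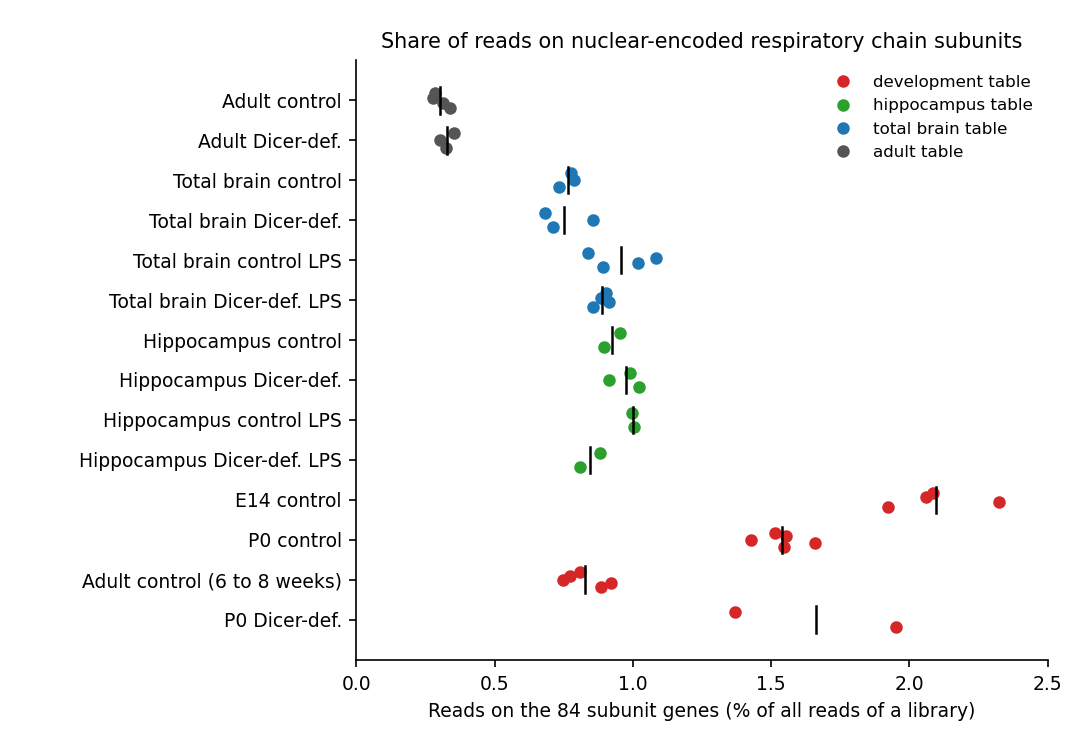
Share of all gene-assigned reads that fell on the 84 subunits (%, x axis) in each library (points), by group (y axis), with colour for the deposited table and a black tick for the group mean. The E14 libraries (1.923% to 2.324%) lie to the right of the P0 libraries (1.426% to 1.659%), which lie to the right of the adults of the same table (0.748% to 0.92%), and the LPS-treated total brain controls (0.839% to 1.085%) lie to the right of their steady-state controls (0.731% to 0.787%).

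The same was read gene by gene. A member was called when its Benjamini-Hochberg adjusted p over all genes tested was below 0.05 in limma. In adults against E14, 72 of the 88 members tested were lower and 2 higher, where 31% of all genes tested were called lower and 21.8% higher. The members' median log2 fold change was -1.24, against -0.10 over all genes tested. Among genes at least as abundant as the median member, 34.7% were called lower and the median was -0.01. Between the stages, 70 members were lower in every adult library than in any E14 library, as were 27.6% of all genes tested.

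The decrease was spread over both intervals, which share the P0 libraries and are given side by side. In P0 against E14, 19 of 89 members were lower and 0 higher, where 14.9% of all genes were called lower and 8.74% higher. The median member log2 fold change was -0.40 (all genes -0.11). In adults against P0, 62 of 89 were lower and 2 higher, where 24.9% of all genes were called lower and 20.9% higher. The median there was -0.80 (all genes -0.04). With adult libraries 1 and 3 alone the counts were 50 lower and 1 higher for adults against P0, and 69 lower and 1 higher for adults against E14. With libraries 1 and 2 alone they were 42 lower and 1 higher, and 66 lower and 1 higher. With libraries 3 to 5 alone they were 62 lower and 3 higher, and 73 lower and 2 higher. The P0 against E14 count was 48 with the E14 and P0 libraries alone and 38 with the 14 controls alone, so that it moved with the libraries that set the spread. Without E14 library 3, which changes the E14 mean as well, it was 11.

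**Figure D2:**
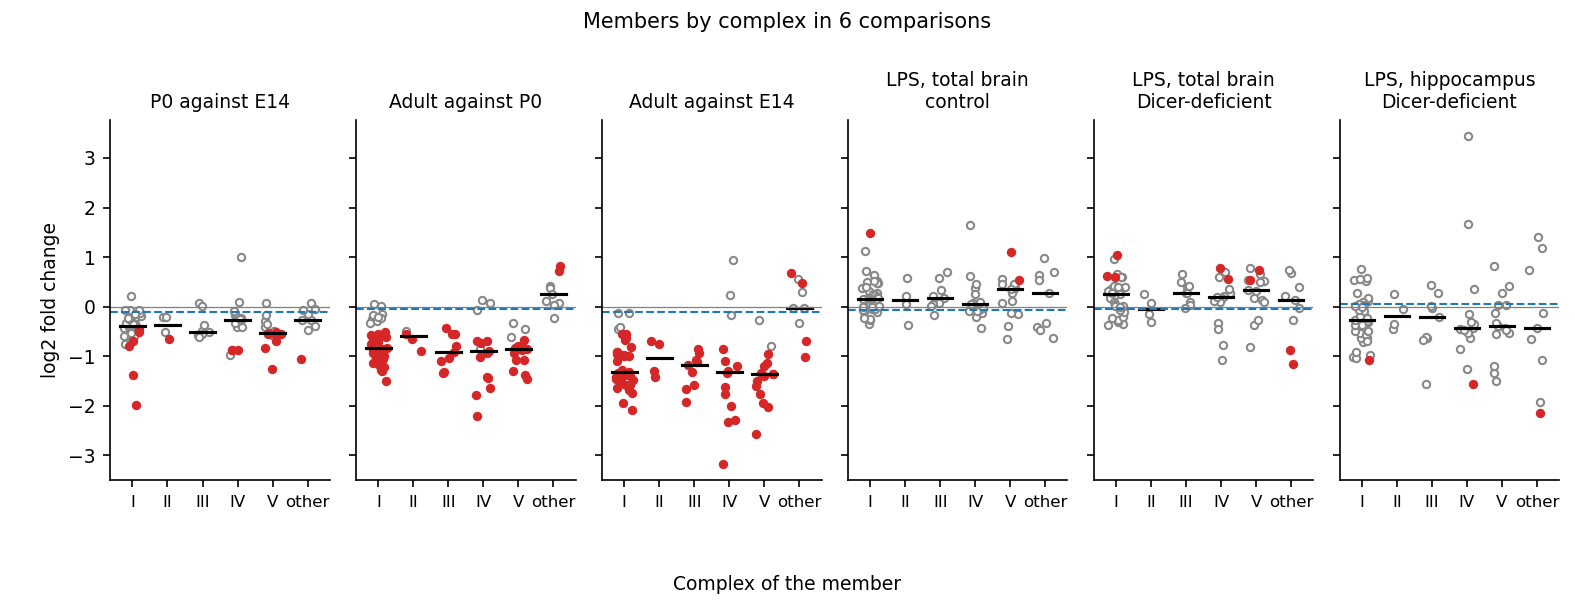
Log2 fold change of each member (points, y axis, on the log2(level + 1) scale) by complex (x axis, "other" for the 9 assembly and accessory genes) in 6 comparisons, with called members in red, the median of each complex as a black line and the median of all genes tested as a blue dashed line. In adults against E14 the medians of complexes I to V lie between -1.03 and -1.37, below the all-gene median of -0.10, and that of the other genes lies at -0.02.

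Complex I takes electrons from NADH. Of its 37 tested subunits, 33 were lower in adults than at E14, with a median log2 fold change of -1.31. Ndufa3, an accessory subunit of the membrane arm, stood at 407, 484, 491 and 595 at E14, at 256, 297, 302, 321 and 354 at P0 and at 117, 147, 163, 165 and 177 in adults. The 3 stages did not overlap, and the gene fell by 0.68 ± 0.15 (log2, SE) from E14 to P0 (adjusted p = 0.00254) and by 1.68 ± 0.15 from E14 to adults (adjusted p = 9.28e-09). Ndufs1, the large iron-sulfur subunit of the NADH-oxidising arm, stood at 196, 237, 244 and 271 at E14 and at 89.5, 125, 128, 132 and 133 in adults, without overlap. Ndufv1, which binds the flavin that accepts electrons from NADH, fell by a smaller amount, 0.56 ± 0.17 (adjusted p = 0.00912).

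Complex I subunits that did not pass the test in adults against E14 included Ndufs3, Ndufs5 and Ndufs7. Ndufs7, an iron-sulfur subunit near the quinone-binding site, had a log2 fold change of -0.41 (adjusted p = 0.205). Ndufa12, an accessory subunit, differed in its course: it stood at 112, 164, 170 and 266 at E14, at 21.3, 22.2, 23.3, 105 and 109 at P0 and at 26.8, 33.5, 42.3, 53.8 and 76.3 in adults. The P0 libraries of Ndufa12 split into 3 low and 2 higher values, and P0 fell by 1.99 ± 0.44 against E14 (adjusted p = 0.00259), while adults against P0 gave 0.05 (adjusted p = 0.925).

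Complex II, which oxidises succinate and is also an enzyme of the TCA cycle, had all 4 subunits lower in adults than at E14. The median was -1.03. The membrane anchors Sdhc and Sdhd fell by 1.29 and 1.41, and the catalytic flavoprotein Sdha and the iron-sulfur subunit Sdhb by 0.76 and 0.69. Sdhb stood at 595, 648, 663 and 746 at E14, at 537, 558, 558, 599 and 621 at P0 and at 287, 350, 391, 456 and 647 in adults. One adult library reached the E14 range, and adults against P0 did not pass the test, with a log2 fold change of -0.48 (adjusted p = 0.0515).

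Complex III passes electrons from ubiquinol to cytochrome c, and all 9 of its subunits were lower in adults than at P0 and than at E14, with medians of -0.92 and -1.17. None of the 9 passed the test between E14 and P0 in the limma fit to all development libraries, where the complex had a median of -0.52. Uqcrfs1, the Rieske iron-sulfur protein, stood at 539, 544, 572 and 595 at E14, at 331, 432, 436, 486 and 513 at P0 and at 205, 212, 221, 267 and 372 in adults. All adult libraries were below all E14 libraries, and the gene fell by 1.17 ± 0.17 (adjusted p = 8.12e-06). Cyc1, the haem-carrying cytochrome c1, fell by 0.92 and Uqcr10, a small membrane subunit, by 1.66 over the same interval.

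Complex IV reduces oxygen. Of its 14 tested subunits, 11 were lower in adults than at E14, with a median of -1.32. Cox5a, a nuclear-encoded subunit of the matrix side, stood at 445, 449, 487 and 586 at E14, at 257, 257, 263, 271 and 278 at P0 and at 71.6, 77.2, 80.6, 106 and 182 in adults. Cox5a fell in both intervals, by 0.88 ± 0.23 and then by 1.44 ± 0.21, without overlap. Cox4i1, the widely expressed isoform of subunit 4, had another course: it stood at 2192, 2628, 2714 and 3212 at E14, at 2254, 2415, 2426, 2426 and 2723 at P0 and at 626, 690, 720, 901 and 1068 in adults. Its E14 and P0 libraries overlapped, and it fell by 1.64 ± 0.21 between P0 and adults (adjusted p = 2.35e-06). Cox6c, at 256, 309, 338 and 463 at E14, 252, 272, 287, 308 and 316 at P0 and 65, 78.5, 82.6, 83.3 and 110 in adults, showed the same order.

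The complex IV isoforms known from heart and skeletal muscle were near the detection limit. Cox7a1 stood at 6.33, 6.76, 11.4 and 14.2 at E14, at 2.49 to 7.01 at P0 and at 0 in 4 of the 5 adult libraries. Cox6a2 was at 1.89 to 4.61 at E14 and at 3.59 to 24.6 in adults, and did not pass the test. Cox7a2, the widely expressed counterpart of Cox7a1, stood at 257 to 424 at E14 and at 94.1 to 146 in adults, without overlap, and fell by 1.62. Cox6a1, that of Cox6a2, stood at 1299 to 1499 and at 583 to 840, also without overlap, and fell by 1.10. Cox7c, a small structural subunit, did not pass the test either (-0.17, adjusted p = 0.748). Its adult libraries split to either side of the E14 mean of 27.4: libraries 1 and 2 stood at 9.33 and 11.4 and libraries 3, 4 and 5 at 50.05, 40.6 and 29.2. Ndufs5 split the same way, at 12.9 and 10.53 against 31.1, 36.6 and 42.3. So did Cox7b, at 60.3 and 44.7 against 122, 142 and 125, and Uqcrb of complex III, at 17.9 and 10.53 against 89.7, 70.1 and 59.5, both of which fell against E14.

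Complex V had 13 of 15 subunits lower in adults than at E14, with a median of -1.37. Atp5b, the catalytic beta subunit, stood at 2226, 2341, 2495 and 2668 at E14, at 1402, 1563, 1737, 1769 and 1918 at P0 and at 696, 707, 743, 837 and 1044 in adults. The 3 stages were separate, with a fall of 0.54 ± 0.16 from E14 to P0 (adjusted p = 0.0152) and of 1.07 ± 0.14 from P0 to adults (adjusted p = 3.93e-06). Atp5k, the membrane subunit e, stood at 293, 316, 332 and 483 at E14, at 91.5, 147, 161, 164 and 182 at P0 and at 44.5, 50, 62.5, 64.9 and 74.2 in adults. It fell by 2.56 ± 0.20 from E14 to adults (adjusted p = 1.43e-09). Complex V also had the most lower calls of the 5 complexes between E14 and P0, 8 of 15, against 6 of 37 for complex I, 1 of 4 for complex II and 3 of 15 for complex IV. These counts are from the fit to all development libraries and are not given for the other fits. The total for this interval moved with the libraries that set the spread. Atp5g1, Atp5g2 and Atp5g3 encode the same mature c-ring subunit. Atp5g3 fell by 2.03 and Atp5g1 by 1.19 in adults against E14, and Atp5g2 did not pass the test (adjusted p = 0.153).

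**Figure D3:**
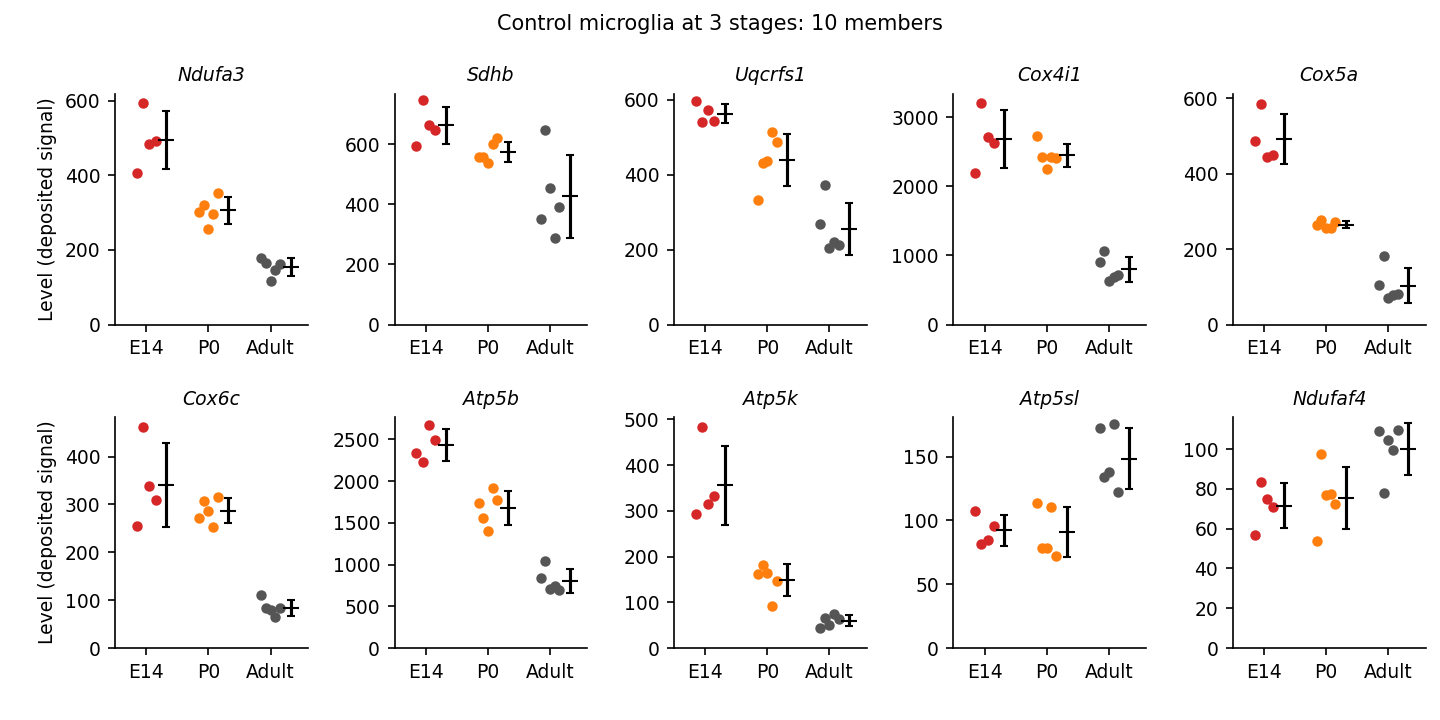
Level (reads scaled by 1 factor per library, y axis, each panel with its own scale) of 10 members in the development controls at E14, P0 and in adults (x axis), with a point for each library and bars for the mean ± SD. Atp5k, Cox5a and Ndufa3 step down at both intervals, Cox4i1 and Cox6c step down between P0 and adults, and the assembly proteins Atp5sl and Ndufaf4 have higher means in adults than at E14, with overlapping libraries for Ndufaf4.

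The 9 assembly and accessory genes had no common direction. Of the 9, 2 were higher and 2 lower in adults than at E14, with a median of -0.02. Atp5sl stood at 81.1, 84.4, 95.5 and 107 at E14, at 72.4, 78.3, 78.4, 110 and 113 at P0 and at 122, 134, 138, 172 and 176 in adults. All adult libraries were above all others, and the gene rose by 0.68 ± 0.20 against E14 (adjusted p = 0.0074). Ndufaf4 rose by 0.48 ± 0.18 (adjusted p = 0.0293). Ndufaf7, a methyltransferase that modifies a complex I subunit during assembly, rose by 0.83 ± 0.24 against P0 (adjusted p = 0.0078). Ndufaf2 took the opposite course, at 91.6 to 103 at E14, 40.7 to 64.7 at P0 and 34.2 to 65.5 in adults, and fell by 1.06 ± 0.21 from E14 to P0. A test of the assembly genes against the subunits was not made.

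Of 39 assembly factors outside the rule, 1 was higher and 11 lower in adults than at E14. Coa5 and Uqcc2, which assist complexes IV and III, fell by 1.47 and 1.58. Among other mitochondrial lists, 51 of 77 proteins of the mitochondrial ribosome were lower (median -0.71), 15 of 21 TCA cycle genes were lower (median -0.81) and 11 of 22 carriers and related genes were lower. Citrate synthase (Cs) stood at 489.5 ± 60.1 at E14 (n = 4) and at 158 ± 15 in adults (n = 5) and fell by 1.62 ± 0.16 (adjusted p = 2.5e-08). Atpif1, the inhibitor of the ATP synthase, fell by 1.67 ± 0.20. Of 13 transcription factors and coactivators of mitochondrial biogenesis, 1 was higher and 1 lower: Esrra, the nuclear receptor ERR alpha, stood at 230.1 in adults and 155.7 at E14 (rose by 0.57 ± 0.13, adjusted p = 0.000974), and Gabpa, the DNA-binding part of NRF2, fell by 0.53.

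The decrease was not limited to mitochondrial lists. In adults against E14, 55 of 82 ribosomal protein genes were lower (median -1.07), as were 30 of 38 proteasome genes (median -0.81) and 10 of 19 glycolysis genes, with 3 higher. The lactate dehydrogenase gene Ldha fell by 2.62. Ribosomal protein genes took 3.709% of reads at E14, 3.11% at P0 and 1.453% in adults. Set against them, the subunits gave 55.1 to 59.1 reads per 100 ribosomal protein reads at E14, 48.5 to 50.2 at P0 and 52.4 to 66.5 in adults. On that scale the adult libraries overlapped those of E14, and the P0 libraries lay below both.

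Markers of other cells moved across the same stages, and their part in the member results was not tested. All 7 tested neuronal markers were lower in adults than at E14, with a summed level of 156.6 to 476.4 at E14, 45.4 to 84.3 at P0 and 6.5 to 14.7 in adults, where Syt1 and Nefl were at 0. Of 8 markers of border macrophages, 5 were lower, with sums of 481.8 to 752.3 at E14, 802.2 to 1108.3 at P0 and 20.2 to 84.3 in adults. Red cell genes took 1.979% of reads at P0 (1.0% to 3.644%), 0.063% at E14 and 0.052% in adults. Without those reads the subunits took 2.099%, 1.571% and 0.827% at the 3 stages. Astrocyte markers summed to 29.9 to 75.4 at E14, 37.3 to 62.5 at P0 and 275.3 to 703.5 in adults. That sum was nearly all Slc1a3, a glutamate transporter gene (441.1 in adults and 14.41 at E14), while Gja1 and Aldoc were lower in adults and Gfap was at 0 at both stages. Monocyte and neutrophil markers summed to 271.7 to 341.0 at E14 and to 830.5 to 2111.2 in adults, and of the 8 tested 3 (Csf3r, S100a9 and Ngp) were higher and 2 (Cxcr2 and Plac8) lower. The lymphocyte sum, nearly all Cd79b, was 179.3 to 237.2 at E14 and 73.7 to 174.7 in adults. Of 8 microglial markers, 5 were higher in adults than at E14 and 1, Fcrls, was lower.

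Because the members fell together between stages, the bases before their start sites were searched for short motifs known from promoters of respiratory genes. RefSeq (GRCm38.p6) gave 250 bases before the start for 76 of the 93 members, 3 of them through a newer symbol, and for 27025 genes in all. The core of the site bound by the activator NRF1, CGCANGCG on either strand, was found in 21 of 76 members (27.632%) and in 7.648% of all genes. The ETS core CCGGAAG, which NRF2 binds, was found in 13 (17.105%) and in 7.826%. The GC box GGGCGG was found in 30 (39.474%) and in 35.356%, the CRE palindrome TGACGTCA in 4 (5.263%) and in 1.769%, the YY1 core GCCATNTTG in 4 and in 1.539%, and the ERR half-site TCAAGGTCA in 1 and in 0.422%. A match is a description of the letters and not a bound site. In adults against E14, 16 of the 21 members with the NRF1 core were lower with a median of -1.09, and 45 of the 53 tested members without it were lower with a median of -1.31. The difference between them was not tested.

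The promoters of 4 genes are shown as examples of the NRF1, ETS, GC box and CRE matches, 5′ to 3′ on the strand of the gene, with the motif matches in capitals. In Atp5k the capitals mark an NRF1 core 49 bases before the start. In Sdhd they mark an NRF1 core at 78 bases and an ETS core, on the opposite strand, at 46. Atp5b has a GC box at 199 and another on the opposite strand at 45. Uqcrfs1 has a CRE at 29 bases. The deposited tables name the older build mm9 and no coordinate in them was used.
Atp5k (chr5:108434400-108434649, minus strand): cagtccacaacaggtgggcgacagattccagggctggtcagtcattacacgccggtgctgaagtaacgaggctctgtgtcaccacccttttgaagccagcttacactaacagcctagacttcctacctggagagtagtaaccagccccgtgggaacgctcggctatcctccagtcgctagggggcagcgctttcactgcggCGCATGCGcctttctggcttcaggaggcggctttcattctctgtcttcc
Sdhd (chr9:50603850-50604099, minus strand): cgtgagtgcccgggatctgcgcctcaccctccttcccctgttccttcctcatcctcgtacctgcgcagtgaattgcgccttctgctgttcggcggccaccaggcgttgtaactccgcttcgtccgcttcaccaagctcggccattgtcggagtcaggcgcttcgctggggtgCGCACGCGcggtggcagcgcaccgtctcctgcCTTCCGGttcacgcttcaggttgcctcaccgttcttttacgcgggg
Atp5b (chr10:128083057-128083306, plus strand): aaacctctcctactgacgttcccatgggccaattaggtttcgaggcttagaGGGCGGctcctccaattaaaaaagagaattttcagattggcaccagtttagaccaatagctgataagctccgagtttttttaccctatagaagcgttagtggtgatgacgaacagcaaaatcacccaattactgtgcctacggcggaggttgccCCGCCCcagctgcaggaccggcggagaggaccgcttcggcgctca
Uqcrfs1 (chr13:30545317-30545566, minus strand): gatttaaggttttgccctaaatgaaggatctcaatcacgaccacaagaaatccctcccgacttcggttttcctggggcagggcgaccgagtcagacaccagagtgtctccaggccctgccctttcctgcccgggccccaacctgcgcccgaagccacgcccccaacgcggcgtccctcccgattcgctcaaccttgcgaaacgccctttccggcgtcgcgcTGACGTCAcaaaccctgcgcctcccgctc

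After LPS, the subunits took a larger share of reads in total brain controls. The share stood at 0.731%, 0.776% and 0.787% at steady state and at 0.839%, 0.8916%, 1.0193% and 1.085% after LPS, without overlap. The ratio of the means was 1.254, with 1.397 for complex V, 1.354 for complex III and 1.144 to 1.185 for the other 3. Few single members passed the test: 3 of 89 were higher and 0 lower, where 7.84% of all genes were called higher and 7.8% lower. The members' median log2 fold change was 0.15 (all genes -0.06), and 63 of the 89 were above 0. The rise was not limited to the chain. Summed levels of ribosomal protein genes stood at 34333.3 to 40052.6 at steady state and at 42998.0 to 57384.0 after LPS, without overlap. Those of proteasome genes stood at 7553.9 to 8116.1 and at 8232.0 to 12045.0, also without overlap. A test of the subunits against these lists was not made.

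Atp5g1, a gene of the c-ring, stood at 58.9, 96.4 and 113.7 at steady state and at 113.9, 208, 214 and 236 after LPS. The groups nearly met, at 113.7 and 113.9, and the gene rose by 1.10 ± 0.30 (adjusted p = 0.021). Ndufa12 stood at 50.1, 66.6 and 69.8 and at 121, 143, 187 and 288, without overlap, and rose by 1.49 ± 0.35 (adjusted p = 0.00962). Atp5b stood at 884, 1045 and 1051 and at 1097, 1415, 1526 and 1857, also without overlap, and rose by 0.55 ± 0.18 (adjusted p = 0.0482). Cyc1, at 342, 419 and 444 and at 369, 652, 685 and 1093, did not pass the test (adjusted p = 0.0688).

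Library 33 of the LPS-treated controls stood apart. Its P2ry12, a microglial gene that LPS lowers in these data, was at 6073.8 where the other 3 were at 973.7 to 1476, and its monocyte and neutrophil markers summed to 4273.4 where the others were at 557.8 to 876.0. Without it, 15 members passed the test, 13 higher and 2 lower. Leaving out LPS library 17, 31 or 32 or steady-state library 8 left 1 member, and leaving out steady-state library 7 left 0. Over all 4 LPS libraries, 6 of 9 monocyte and neutrophil markers were higher than at steady state and 2 lower. Their sums were 1001.6 to 1168.1 at steady state, above every LPS library except 33. Red cell markers summed to 456.1 to 18729.6 after LPS and 561.7 to 3623.9 at steady state. The part of these markers was not tested.

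Around the chain, 6 of 19 glycolysis genes were higher and 2 lower in the LPS-treated controls, with Ldha up by 1.68. Of 39 assembly factors outside the rule, 5 were higher and 0 lower. They included Sco2, a copper chaperone of complex IV, at 317.1 ± 103 after LPS (n = 4) and 105.7 ± 5.05 at steady state (n = 3), which rose by 1.51 ± 0.26 (adjusted p = 0.00316), and Cox10, which makes the haem of complex IV and rose by 0.77 (adjusted p = 0.0196). Of 77 mitochondrial ribosomal proteins, 11 were higher and 0 lower. Of 21 TCA cycle genes 2 were higher: Idh3a by 1.22, and Irg1, whose product diverts the cycle to itaconate, by 4.54. Higd2a, which helps assemble the chain, fell by 0.84.

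In Dicer-deficient total brain microglia LPS raised 7 of 89 members and lowered 2, where 13.5% of all genes were called higher and 14.2% lower. The median was 0.24 (all genes -0.05), and 65 of 89 members were above 0. The share of reads on subunits stood at 0.6813%, 0.7124% and 0.8561% at steady state and at 0.8574% to 0.9152% after LPS. Ndufa5, an accessory subunit of the matrix arm of complex I, stood at 16.2, 17.4 and 20.9 at steady state and at 31.3, 31.3, 43.2 and 50.9 after LPS. The groups did not overlap, and it rose by 1.05 ± 0.27 (adjusted p = 0.00888).

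The other 6 members that rose were Cox5b (0.78 ± 0.25), Atp5o, the stalk subunit OSCP (0.74 ± 0.26), Ndufa11 (0.61 ± 0.21), Ndufa3 (0.60 ± 0.20), Cox8a (0.56 ± 0.19) and Atp5b (0.54 ± 0.18), with adjusted p from 0.0247 to 0.0449. For Atp5o and Ndufa11 the groups overlapped. Steady-state library 11b stood at 195.3 and 179.9, and the lowest LPS libraries at 153.7 and 177.9. Those that fell were both outside the complexes. Atp5s stood at 26.7, 37.6 and 40.9 and at 9.3, 12.7, 16.4 and 24.8, without overlap, and fell by 1.16 ± 0.38 (adjusted p = 0.0285). Ndufaf7 stood at 76.6, 96.1 and 113 and at 39, 43.2, 60.2 and 65.6 and fell by 0.88 ± 0.30 (adjusted p = 0.0353). Steady-state library 11b was the highest of its group for the share, and without it 18 members passed the test, 16 higher and 2 lower, while without library 12 the count was 1, without steady-state library 5 or LPS library 38 it was 2, and without LPS library 35 or 36 it was 4 or 5. Red cell markers rose with LPS in these mice, 7 of 9, from sums of 122.2 to 684.4 to sums of 4585.6 to 10723.4. Astrocyte markers summed to 402.6 to 805.3 at steady state and to 1100.9 to 2044.6 after LPS, nearly all of it Slc1a3, with Aqp4 at 0. Lymphocyte markers, mainly Cd79b, summed to 22.2 to 31.4 and to 1.7 to 12.6. Of 10 monocyte and neutrophil markers, 7 were higher and 1 lower. Their sums overlapped, at 1163.2 to 1348.9 at steady state and at 1142.3, 1246.9, 3441.3 and 3946.6 after LPS. The part of these markers was not tested.

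Ppargc1b, the coactivator PGC-1 beta, rose from 7.7 ± 1 (n = 3) to 80.55 ± 24.1 (n = 4) with LPS in Dicer-deficient total brain microglia, by 3.18 ± 0.48 (adjusted p = 0.000168). Sco2 rose by 1.49 and Cox10 by 1.17, and Higd2a fell by 1.34. AA467197, a gene of the Ndufa4 family outside the rule, stood at 0 to 1.9 at steady state and at 4.9 to 50 after LPS and rose by 3.06 ± 0.74 (adjusted p = 0.00534). Of 77 mitochondrial ribosomal proteins, 17 were higher and 0 lower. The difference between the genotypes' responses was tested directly, and 0 of 89 members passed in limma, where 0.171% of all genes were called. At an unadjusted p under 0.05 there were 2 members (9.37% of all genes), and edgeR and DESeq2 called 0. The 2 were Ndufa5, with a difference of 1.04 ± 0.40 (adjusted p = 0.368), and Cox8a, with 0.62 ± 0.26 (adjusted p = 0.453).

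In hippocampal microglia, with 2 or 3 libraries a group, LPS changed 2 members of 89 in controls, where 6.05% of all genes were called. Atp5g1 stood at 30.5 and 60.3 at steady state and at 179 and 214 after LPS, without overlap, and rose by 2.16 ± 0.51 (adjusted p = 0.0279). Ndufa6, an accessory subunit of complex I, stood at 630 and 717 and at 296 and 356 and fell by 1.05 ± 0.27 (adjusted p = 0.039). With the compared libraries alone neither passed, and leaving out any 1 of the 4 libraries left 0 or 1, with the lone library of that group assumed to vary like the others. Without steady-state control 1, the library low in Cx3cr1, 1 member passed. Border macrophage markers summed to 309.2 to 478.2 at steady state and to 6.5 to 38.1 after LPS (3 of 8 lower), and red cell markers to 39.8 to 50.1 and to 198.6 to 3196.0; their part was not tested. Atp5b stood at 902 and 1050 and at 1484 and 1750 and did not pass (0.73 ± 0.21, adjusted p = 0.0628). The members' median was 0.07. Sco2 rose by 2.20 and Cox10 by 1.44, and Higd2a fell by 1.70.

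In Dicer-deficient hippocampal microglia LPS lowered 3 of 88 members and raised 0, where 5.23% of all genes were called lower and 4.28% higher. The median was -0.34 (all genes 0.06). Cox7a2l, which joins complexes III and IV into supercomplexes, stood at 241, 255 and 303 at steady state and at 75 and 108 after LPS, without overlap, and fell by 1.55 ± 0.36 (adjusted p = 0.0155). Ndufa6 stood at 644, 877 and 907 and at 337 and 430 and fell by 1.07 ± 0.25 (adjusted p = 0.0159). Atp5s stood at 97.2, 107 and 109 and at 15.3 and 34.3 and fell by 2.14 ± 0.59 (adjusted p = 0.0378). Without LPS library 18, which leaves 1 LPS library in this group, the count was 1 and the median -0.19, and without steady-state library 6 the count was 1.

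The share of reads on subunits stood at 0.9153%, 0.9897% and 1.0219% at steady state and at 0.8077% and 0.8825% after LPS in the Dicer-deficient hippocampus. In hippocampal controls it was 0.8948% and 0.9541% and then 0.9961% and 1.003%. The inhibitor Atpif1 fell by 1.51 (adjusted p = 0.00213) in the Dicer-deficient libraries. Monocyte and neutrophil markers summed to 8208.9 to 8477.8 at steady state and to 764.9 to 1020.3 after LPS, and 5 of the 10 tested were lower with LPS. Border macrophage markers summed to 306.5 to 459.4 and to 1.4 to 20.2 (4 of 8 lower), and astrocyte markers, nearly all Slc1a3, to 521.0 to 737.8 and to 1223.7 to 1568.7. The part of these markers was not tested. The difference between the genotypes' responses passed for 0 of 89 members in limma (1 at an unadjusted p under 0.05, and 0 in edgeR and DESeq2), where 0.0162% of all genes were called and 5.71% had such a p.

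**Figure D4:**
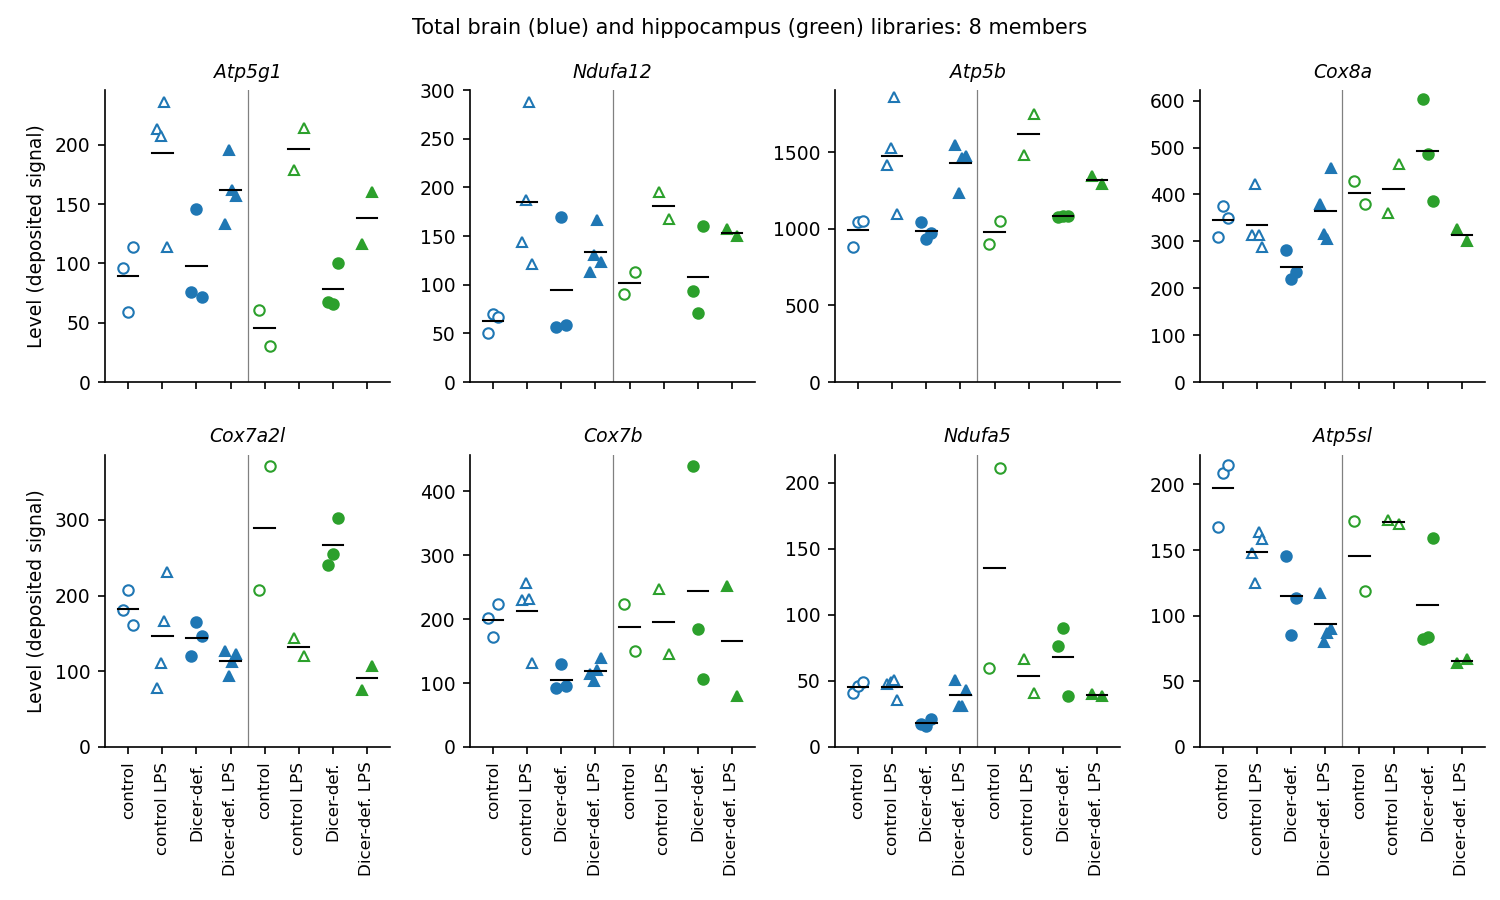
Level (y axis, each panel with its own scale) of 8 members in total brain (blue) and hippocampal (green) libraries, for controls (open symbols) and Dicer-deficient mice (filled symbols) at steady state (circles) and 6 h after LPS (triangles), with a line for the group mean. Atp5g1 and Ndufa12 are higher after LPS in the total brain controls, Cox7a2l is lower after LPS in the Dicer-deficient hippocampus, and Cox7b and Atp5sl are lower in the Dicer-deficient total brain libraries after LPS than in their controls. The tables were scaled separately, so colours are not compared.

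Dicer-deficient and control microglia differed in few members without LPS. Of 76 members tested in the adult table, 1 was higher and 0 lower, where 3.15% of all genes were called higher and 2% lower. The median was 0.15 (all genes 0.05). The member was Uqcrfs1, at 360, 534, 549 and 658 in controls and at 801, 867 and 896 in the Dicer-deficient libraries, without overlap, and it rose by 0.73 ± 0.19 (adjusted p = 0.034). It lost the call in 6 of the 7 fits that left out 1 library, all but that without control 2. Cyc1, of the same complex, did not pass (0.65 ± 0.21, adjusted p = 0.0904). The uncoupling protein gene Ucp2 fell by 0.68 (adjusted p = 0.00635), from 1995 ± 122 (n = 4) to 1246 ± 15.1 (n = 3). The sums of astrocyte markers (1405.7 to 1562.8 in controls and 632.2 to 1162.2 in Dicer-deficient libraries), lymphocyte markers (190.0 to 495.0 and 51.8 to 143.7) and endothelial markers (138.6 to 203.4 and 38.6 to 41.7) were lower in the Dicer-deficient libraries, and their part was not tested.

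In the total brain at steady state, 1 of 89 members was lower and 0 higher, where 1.57% of all genes were called lower and 0.916% higher. Ndufa5 stood at 40.7, 46.3 and 49.4 in controls and at 16.2, 17.4 and 20.9 in Dicer-deficient libraries, without overlap, and fell by 1.28 ± 0.29 (adjusted p = 0.0271). It lost the call in 5 of 6 fits without 1 library (all but that without Dicer-deficient library 12) and, at an adjusted p of 0.0505, with the compared libraries alone. Cox7b, a small subunit of complex IV, stood at 172, 201 and 224 and at 91.6, 95.2 and 129, without overlap, and did not pass (-0.92 ± 0.24, adjusted p = 0.0533). Lymphocyte markers, nearly all Cd79b, summed to 114.9 to 250.6 in controls and to 22.2 to 31.4 in Dicer-deficient libraries, and their part was not tested. In the steady-state hippocampus 0 of 89 members passed in limma (2 at an unadjusted p under 0.05, and 0 in edgeR and DESeq2), where 0.282% of all genes were called and 11.4% had such a p. There Ndufs6 had 0.81 (adjusted p = 0.325). Monocyte and neutrophil markers summed to 1579.6 and 3234.8 in these hippocampal controls and to 8208.9 to 8477.8 in the Dicer-deficient libraries. Red cell markers summed to 39.8 and 50.1 and to 219.8 to 385.7. Lymphocyte markers summed to 146.7 and 228.5 and to 42.4 to 101.5. The part of these markers was not tested.

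After LPS, 4 of 88 members were lower in Dicer-deficient total brain microglia than in controls and 0 higher, where 5.93% of all genes were called lower and 4.25% higher. The median was -0.12 (all genes -0.10). Cox7b stood at 132, 230, 231 and 256 in controls and at 103, 114, 120 and 140 in Dicer-deficient libraries. One control lay within the Dicer-deficient range, and the gene fell by 0.79 ± 0.21 (adjusted p = 0.025). Atp5sl stood at 124, 148, 158 and 164 and at 79.6, 86.9, 89.7 and 118, without overlap, and fell by 0.67 ± 0.20 (adjusted p = 0.0391). Ndufb10, an accessory subunit of complex I, fell by 0.56 ± 0.16 (adjusted p = 0.033).

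The muscle isoform Cox6a2 stood at 24.8, 53.5, 64.7 and 70.9 in LPS-treated controls and at 4.2, 12.4, 13 and 20.2 in the Dicer-deficient libraries and fell by 2.08 ± 0.62 (adjusted p = 0.0416). With the compared libraries alone 1 member passed. Leaving out 1 library gave 0 (Dicer-deficient 37), 1 (Dicer-deficient 35 or 36, control 17 or 31) or 2 (control 32). The fits without Dicer-deficient library 38 or control 33 enter only the range given further below. AA467197 stood at 0 to 3.1 in controls and at 4.9 to 50 in Dicer-deficient libraries and rose by 2.44 ± 0.69 (adjusted p = 0.0336). The monocyte and neutrophil markers summed to 557.8 to 4273.4 and to 1142.3 to 3946.6, and 4 of 10 were higher in the Dicer-deficient libraries. Astrocyte markers, nearly all Slc1a3, summed to 593.4 to 869.2 in controls and to 1100.9 to 2044.6 in Dicer-deficient libraries, and Aqp4 was at 0. Lymphocyte markers, mainly Cd79b, summed to 41.8 to 149.5 and to 1.7 to 12.6, with Cd3e and Cd79a at 0. The part of these markers was not tested. In the LPS-treated hippocampus 0 of 89 members passed in limma (5 at an unadjusted p under 0.05, and 0 in edgeR and DESeq2), where 0.363% of all genes were called and 9.16% had such a p. Atp5sl there stood at 170 and 173 in controls and 63.9 and 67.3 in Dicer-deficient libraries, without overlap (-1.37 ± 0.47, adjusted p = 0.333).

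In newborns, the 2 Dicer-deficient libraries lay on either side of the 3 controls that the labels name for this comparison. Their subunits took 1.9529% and 1.3682% of reads, and those of the controls 1.4262% to 1.6587%. Cox4i1 stood at 6925 and 2556 in Dicer-deficient libraries 1 and 2 and at 2723, 2426 and 2254 in controls. In limma 0 of 89 members passed (12 at an unadjusted p under 0.05, and 0 in edgeR and DESeq2), where 1.48% of all genes were called and 20.9% had such a p. Ndufb3 stood at 41.6 and 84.3 and at 135, 149 and 141 (-1.24 ± 0.34, adjusted p = 0.0999). Red cell markers summed to 17037.4 and 11214.4 in the Dicer-deficient libraries and to 27976.2 to 33991.4 in the 3 controls. Lymphocyte markers summed to 171.6 and 181.4 and to 254.6 to 350.4. Monocyte and neutrophil markers summed to 143.0 and 188.4 and to 253.0 to 542.7. The part of these markers was not tested. Library 1 held 117166.8 of summed ribosomal protein level where library 2 held 48174.7, and its Cx3cr1 stood at 647.3 where that of library 2 was at 3128.7. Without library 2 the count was 57, 42 higher and 15 lower, and without library 1 it was 1. Each of these fits has 1 Dicer-deficient library and takes its spread from the 3 controls alone, so both counts describe single libraries and not the genotype.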

How the data were processed

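The authors' 4 deposited tables give signal per gene and library, namely read counts multiplied by 1 factor per library. At least 99.945% of the 560156 values above 0 were whole reads within 0.1 read; in 7 libraries no gene was listed at 1 read. Per the submitters' processing notes, bcl2fastq, HISAT 0.1.5, SAMtools, HOMER and DESeq2 were used with build mm9, and the labels' protocols cite oligo(dT) capture; the annotation, the scaling and the use of molecular identifiers are not given in the sources used here.

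Levels were tested as log2(level + 1) with limma 3.58.1 in R 4.3.3 (trended eBayes, 1 mean per group, 1 fit per table, the newborn comparison on its own 5 libraries). A gene was tested where its level reached 1 in no fewer libraries than its smallest compared group has, p-values were Benjamini-Hochberg adjusted over all genes tested, and calls were made below 0.05. Fold changes on this scale understate low genes. Alternatives were edgeR 4.0.16 and DESeq2 1.42.0 on recovered reads, other pseudocounts and filters, the compared libraries alone and each library left out. The fit was tested on simulated data. Replicate numbers were not treated as pairs: 0 same-numbered pairs correlated above 0.1. No 2 libraries of a group agreed within sampling noise. The genes named were the called members, up to 12 a direction by smallest p, the smallest p up to 5 where fewer were called, a list of core subunits and isoforms, and up to 3 genes of each pathway list; Sdhc, Sdhd, Uqcr10, Ndufs3, Ndufs5, Ndufs7 and Cox7c in adults against E14 and the members at 0 in the adult table were named after their values were seen. Members and lists were chosen with earlier results of these data known. Some items are not reported here.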

Additional observations from a re-analysis of the deposited data

Results flagged for a closer look

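For each group of 4 to 10 libraries, the highest or lowest library was set against the others by Dixon's rule for a single distant value. It marked 11 of 197 groups of values (5.584%), and chance alone marks about 1 in 20.

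In the LPS-treated Dicer-deficient total brain libraries the highest share of reads was distant for complex III, at 0.1273% where the others were at 0.1134% to 0.1148%, and for complex IV, at 0.1578% where the others were at 0.143% to 0.1441%. In the LPS-treated total brain controls the highest Ndufaf7 library stood at 124.8 where the others were at 51.6 to 58.8, and the lowest Uqcrfs1 library at 253.5 where the others were at 338.5 to 344.0. Both of these values come from library 33, described above as standing apart. Neither member was called in that group's LPS comparison.

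In the development table, Cox7a2 had an adult library at 146.4 (others 94.06 to 106.8), Ndufs1 an adult library at 89.48 (others 124.9 to 132.8) and Cox7a1 an adult library at 0.877 where the others were at 0. At E14 the distant libraries were those of Atp5g3 at 1769 (others 1391 to 1432) and Ndufaf2 at 91.55 (others 101.9 to 103.0). At P0 they were those of Ndufaf2 at 64.72 (others 40.71 to 46.37) and Ndufv3 at 204.5 (others 268.2 to 281.4).

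The LPS response of Cox8a, a small subunit of complex IV, had opposite signs in the 2 regions of Dicer-deficient mice. Its log2 fold change was 0.56 in the total brain (adjusted p = 0.0335 in limma) and -0.62 in the hippocampus, where it did not pass the test (adjusted p = 0.17). Every LPS library lay on the stated side of the steady-state libraries in both regions. Among 28 members compared, it was the 1 case where both regions had groups without overlap and opposite directions. Members with opposite signs but overlapping groups were not counted. The difference between regions was not tested, since their tables were scaled separately.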

How the results depend on the processing

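The stage differences kept their direction under every alternative run, and 0 named members reversed. Adults against E14 gave 71 to 76 called members and adults against P0 gave 58 to 63 when 1 library was left out, with medians of -0.84 to -0.73 for the latter. P0 against E14 gave 11 to 17 in those fits, 48 with the compared groups alone, 38 with the 14 control libraries alone and 42 with the replicate number as a block; the numbers do not pair these libraries. The block gave 65 for adults against P0, 74 for adults against E14, 1 for the adult Dicer comparison and 0 for the newborn one.

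Counts in the small comparisons moved with the setting. DESeq2 gave 2 members in the steady-state total brain Dicer comparison and 7 in the LPS comparison of total brain controls. The Dicer comparison after LPS in total brain gave 1 with the compared groups alone and 2 with edgeR under TMM or RLE scaling. The LPS comparison of hippocampal controls gave 0 with the compared groups alone and 1 with edgeR TMM. The newborn comparison gave 2 with all 5 newborn controls. Leaving out 1 library gave 0 to 1 in the adult Dicer and steady-state total brain Dicer comparisons and in hippocampal controls with LPS, 0 to 3 in total brain Dicer after LPS, 0 to 15 in total brain controls with LPS, 1 to 18 in Dicer-deficient total brain with LPS, 1 to 2 in Dicer-deficient hippocampus with LPS (median -0.40 to -0.19) and 0 to 57 in newborns (median -0.18 to 0.63). The 57 and both newborn medians come from fits with 1 Dicer-deficient library, whose spread is that of the 3 controls; in the hippocampus a group reduced to 1 library was assumed to vary like the others. Over all members followed singly, 125 values lost the call, 20 gained it and 1465 stayed on their side of the threshold. Beyond the fits with fewer libraries, the cause was not tested. The muscle isoform Cox7a1 rests on few reads, as does Cox6a2 in the adult table and at E14. In the total brain after LPS Cox6a2 had 24, 54, 82 and 88 reads in controls. It had 5, 14, 21 and 37 in Dicer-deficient libraries.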
